A study of Mus musculus with 22 samples.

Results

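The genes described here are 9 genes of meiosis and the germline, Ddx4, Dazl, Sycp1, Sycp2, Sycp3, Tdrd1, Mael, Stra8 and Morc1, taken by name from 21938 protein-coding genes, and all 9 were found in the annotation. They were followed across 7 deposited peak lists from chromatin immunoprecipitation with sequencing (ChIP-seq) of mouse embryonic stem cells cultured with serum and LIF. Wild-type E14 cells gave lists for MTF2, EZH2, H3K27me3 and H3K4me3. Cells labelled Mtf2 GT/GT, in which a gene-trap cassette disrupts the coding sequence, gave lists for EZH2, H3K27me3 and H3K4me3. The labels do not say how many clones were used. They call the gene-trap cells E14 in one field and Mtf2 GT/GT in another, so the genotype cannot be told apart from a difference in line background. A gene was given a mark when a peak touched its promoter, meaning all bases up to 1 kb away from a transcription start site (TSS) of that gene.

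MTF2, of the Polycomb-like family, binds DNA and joins Polycomb repressive complex 2 (PRC2). EZH2 is its subunit that methylates histone H3 at lysine 27, which gives H3K27me3, a mark of repressed promoters. H3K4me3 is laid down by other enzymes and marks promoters that are active or open to activation, and a promoter with both marks is called bivalent. Germline genes are silent in most cells other than germ cells. Their promoters are known for repression by DNA methylation and by variant Polycomb repressive complex 1 (PRC1) assemblies that hold PCGF6, E2F6 and MGA, in embryonic stem cells as well.

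Each list stands for 2 libraries of its group and holds positions only, so library depth is unknown, no spread between replicates can be given, and no test between groups was possible. The lists held 6357 MTF2, 7213 EZH2, 6294 H3K27me3 and 27418 H3K4me3 peaks in wild-type cells. In gene-trap cells they held 840, 963 and 26960 peaks of the latter 3. All 10 stem cell markers examined, Pou5f1, Nanog and Sox2 among them, had H3K4me3 at the promoter in both genotypes. So did 65.5% of all genes in wild-type and 66.1% in gene-trap cells, which makes this a weak check of the cell type. One of the 10, Esrrb, had H3K27me3. A mark missing from a list means that no region is listed there, which is not the same as no signal. The lists are labelled MAnorm unbiased, and whether called regions were left out at that step is not known. MTF2 itself was not analysed here in gene-trap cells, so its loss was not checked, and whether depth differed between the genotypes was not tested.

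The 9 genes fell into 5 patterns in wild-type cells. Ddx4, Sycp1 and Tdrd1 had peaks of MTF2, EZH2 and both histone marks. Sycp2 and Mael had MTF2, H3K27me3 and H3K4me3 but no EZH2 peak. Dazl had both histone marks without MTF2 or EZH2. Sycp3 and Morc1 had H3K4me3 as their one mark, and Stra8 had a peak in none of the 7 lists. In gene-trap cells Ddx4 alone still had H3K27me3, Morc1 no longer had H3K4me3, and the other 7 H3K4me3 promoters were still listed.

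**Figure D1:**
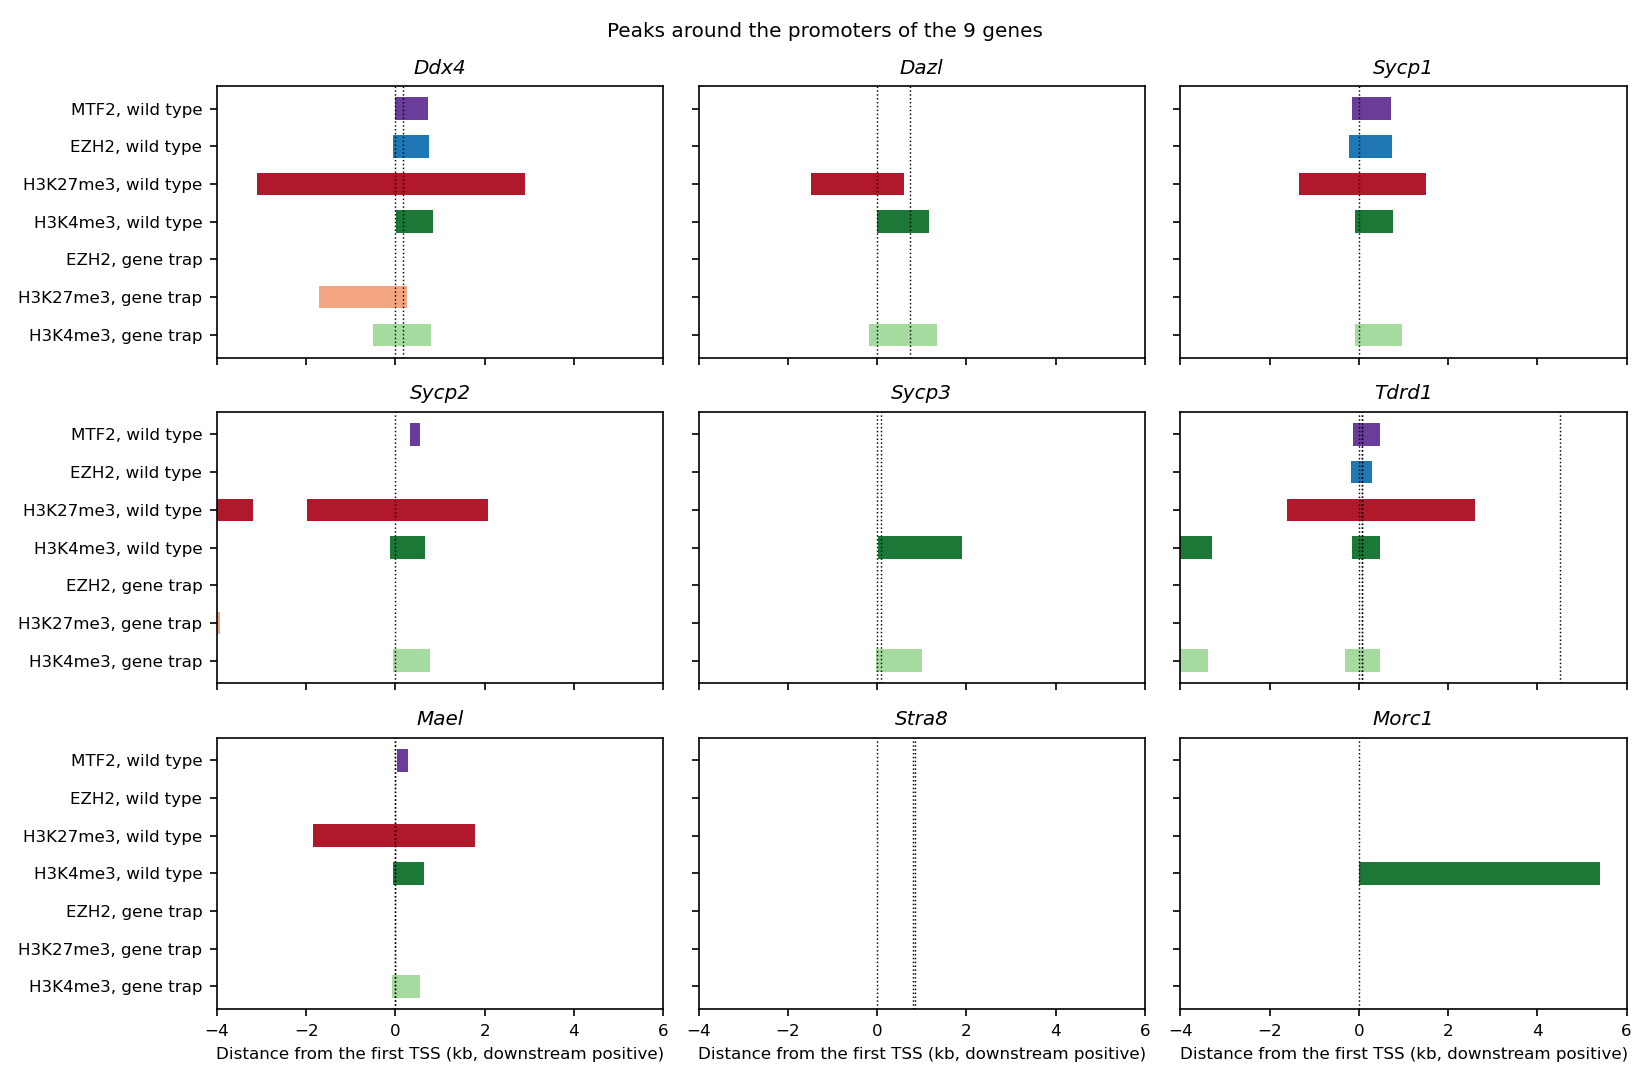
Peaks of the 7 lists from 4 kb before to 6 kb after the first TSS of each gene; each row is a list, bars span called regions, dotted lines mark every TSS, and the x axis is distance in kb with the direction of transcription to the right. In Ddx4, Sycp1, Sycp2, Tdrd1 and Mael a short H3K4me3 peak lies wholly inside a wider H3K27me3 domain, which is missing from the gene-trap rows of all of these but Ddx4.

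The sequence under 3 of the 5 MTF2 peaks is shown, and the bases shown are all in the first intron. MTF2 was centred after the nearest TSS at all 5. GCG, the trinucleotide in the DNA motif of MTF2, is in capitals on either strand (GCG or CGC). Sequences run in the direction of transcription, are on GRCm38, and cover the central 300 bases where the peak is longer.
Ddx4, centre of the MTF2 peak, chr13:112651970-112652269, minus strand: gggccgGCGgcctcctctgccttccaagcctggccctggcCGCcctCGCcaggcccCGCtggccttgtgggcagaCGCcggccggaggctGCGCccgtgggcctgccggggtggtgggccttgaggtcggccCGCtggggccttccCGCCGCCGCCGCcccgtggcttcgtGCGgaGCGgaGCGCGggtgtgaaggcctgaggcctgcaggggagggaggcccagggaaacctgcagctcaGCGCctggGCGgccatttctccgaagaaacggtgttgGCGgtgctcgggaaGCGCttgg
Sycp1, centre of the MTF2 peak, chr3:102935669-102935968, minus strand: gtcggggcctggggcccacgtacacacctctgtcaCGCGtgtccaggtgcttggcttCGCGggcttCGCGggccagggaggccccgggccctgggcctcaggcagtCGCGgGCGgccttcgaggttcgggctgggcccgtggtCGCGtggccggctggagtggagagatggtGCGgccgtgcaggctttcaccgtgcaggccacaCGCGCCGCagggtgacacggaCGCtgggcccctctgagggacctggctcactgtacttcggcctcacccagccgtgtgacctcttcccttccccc
Sycp2, whole MTF2 peak, chr2:178407135-178407364, minus strand: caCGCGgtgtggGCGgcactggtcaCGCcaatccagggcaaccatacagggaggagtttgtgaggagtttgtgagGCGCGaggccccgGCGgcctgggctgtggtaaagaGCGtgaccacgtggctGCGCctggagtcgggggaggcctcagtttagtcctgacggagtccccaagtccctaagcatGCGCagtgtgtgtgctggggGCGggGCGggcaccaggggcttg
With overlaps counted, these hold 23, 17 and 15 GCG trinucleotides and 30, 28 and 16 CpG dinucleotides, the last in 230 bases. Over the whole peak, GCG came to 7.44 per 100 bp at Ddx4, 5.66 at Sycp1, 6.52 at Sycp2, 5.56 at Tdrd1 and 6.75 at Mael. The median over all 6357 MTF2 peaks was 4.78 per 100 bp, so all 5 lay above it. Their CpG densities, from 6.96 at Sycp2 to 9.92 per 100 bp at Mael, were also above the median of 6.37. Both medians take in MTF2 peaks away from promoters as well, so they are not those of promoter peaks alone.

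The bases before the TSS are shown for 2 promoters with MTF2, Tdrd1 and Mael, and for 2 without it, Dazl and Sycp3, with GCG in capitals as above. They come from the RefSeq promoter table for GRCm38.p6, which matched 8 of the 9 genes and lacks Morc1, and were trimmed where they met an untranslated exon.
Tdrd1, with MTF2, chr19:56825959-56826208, plus strand: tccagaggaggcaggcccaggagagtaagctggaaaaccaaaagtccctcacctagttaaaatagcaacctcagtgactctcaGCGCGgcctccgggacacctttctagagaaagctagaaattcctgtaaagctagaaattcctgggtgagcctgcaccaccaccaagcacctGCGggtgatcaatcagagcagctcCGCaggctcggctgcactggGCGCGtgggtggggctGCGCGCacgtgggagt
Mael, with MTF2, chr1:166238748-166238994, minus strand: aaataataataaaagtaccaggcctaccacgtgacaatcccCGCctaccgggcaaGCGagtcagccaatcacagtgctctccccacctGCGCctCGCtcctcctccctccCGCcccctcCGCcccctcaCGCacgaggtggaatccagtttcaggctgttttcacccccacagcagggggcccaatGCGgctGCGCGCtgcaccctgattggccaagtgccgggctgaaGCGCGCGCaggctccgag
Dazl, without MTF2, chr17:50293637-50293870, minus strand: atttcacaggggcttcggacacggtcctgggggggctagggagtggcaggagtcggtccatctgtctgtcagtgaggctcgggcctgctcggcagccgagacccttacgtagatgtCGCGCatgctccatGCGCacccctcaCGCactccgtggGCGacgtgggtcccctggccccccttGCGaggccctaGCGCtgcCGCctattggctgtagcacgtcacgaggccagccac
Sycp3, without MTF2, chr10:88459337-88459568, plus strand: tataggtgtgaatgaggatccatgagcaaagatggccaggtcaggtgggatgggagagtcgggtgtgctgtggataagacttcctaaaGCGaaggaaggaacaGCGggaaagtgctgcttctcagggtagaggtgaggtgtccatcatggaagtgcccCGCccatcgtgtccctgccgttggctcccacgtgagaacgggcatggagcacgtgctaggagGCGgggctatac
They hold 12 GCG trinucleotides in 250 bases at Tdrd1, 19 in 247 at Mael, 11 in 234 at Dazl and 4 in 232 at Sycp3. In the full window from 250 bases before to 50 after the start, GCG ranged over the 8 genes from 2.00 per 100 bp at Sycp3 to 9.33 at Ddx4, with a median of 5.83 against 3.00 over 16522 promoters of the same length. Stra8 had 2.67 and Sycp2 3.00. In GCG density the 3 genes without an MTF2 promoter peak, Sycp3, Stra8 and Dazl (6.67), thus did not all lie below the 5 with one. The MTF2 peak of Sycp2 lies downstream of this window. Over the promoters of this table the median was 5.67 with MTF2, 5.33 with both histone marks, 5.0 with H3K4me3 alone, 1.0 with H3K27me3 alone and 0.333 with neither mark.

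The hexamer CACGTG, an E-box bound by MAX with partners such as MGA, was found in this window in 5 of the 8 promoters (Ddx4, Sycp1, Sycp3, Tdrd1 and Mael), and in 8.11% of the 16522. It reads the same on both strands. Each site is shown with 30 bases of context, the hexamer in capitals.
Ddx4, chr13:112652322-112652351, minus strand: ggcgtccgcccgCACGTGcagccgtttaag
Sycp1, chr3:102936177-102936206, minus strand: tagagaacccggCACGTGggaagggaaatc
Sycp3, site further from the start, chr10:88459511-88459540, plus strand: gccgttggctccCACGTGagaacgggcatg
Sycp3, site nearer the start, chr10:88459532-88459561, plus strand: acgggcatggagCACGTGctaggaggcggg
Tdrd1, chr19:56826186-56826215, plus strand: tggggctgcgcgCACGTGggagtaaactgc
Mael, chr1:166238950-166238979, minus strand: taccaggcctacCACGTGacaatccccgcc
The hexamers begin 29 bases before the RefSeq start at Ddx4, 94 at Sycp1, 64 and 43 at Sycp3, 11 at Tdrd1 and 223 at Mael. In the promoters of this table the hexamer was in 8.90% of bivalent promoters, 10.8% of those with H3K4me3 and no H3K27me3, and 3.44% of those with neither mark. GCGGGA or its complement TCCCGC, the core of the E2F motif, was in 4 of the 8 (Ddx4, Sycp1, Sycp3 and Mael) and in 26.5% of all promoters. By class it was in 39.1% of bivalent promoters, 36.9% of those with H3K4me3 and no H3K27me3, and 3.67% of those with neither mark. Among promoters with MTF2 the share was 40.1%, so 4 of 8 is near the share of promoters with like marks. The motifs can overlap at their ends. Both were present in the same 4 genes, and in 2.81% of all promoters. Sycp3 holds 2 CACGTG and 1 GCGGGA and had neither MTF2 nor H3K27me3, so the hexamers did not separate the genes with these marks from those without. Within 1 kb on either side of the start, 7 of 8 genes held CACGTG (28.3% of all promoters) and 5 of 8 GCGGGA (57.6%). These matches describe letters and are not binding sites.

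Taking the marks one by one, MTF2 was listed at 5 of the 9 genes, and at 15.9% of all protein-coding genes. Ddx4 encodes a DEAD-box RNA helicase of germ cells, and its MTF2 peak spanned 739 bp (chr13:112651750-112652488), 200 bp of it untranslated exon and 526 bp intron. Sycp1 encodes the transverse filament of the synaptonemal complex, which joins paired chromosomes in meiosis, and its peak spanned 865 bp (chr3:102935386-102936250). Tdrd1 encodes a Tudor-domain protein of the piRNA pathway, the small-RNA defence of germ cells against transposons. Its MTF2 peak spanned 612 bp (chr19:56826069-56826680). These 3 peaks all covered a TSS.

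The MTF2 peaks at the other 2 genes were much shorter and began after the TSS. Sycp2 encodes a protein of the lateral elements of the synaptonemal complex, and its MTF2 peak of 230 bp (chr2:178407135-178407364) lay wholly in the first intron, from 321 to 550 bp downstream. Mael encodes Maelstrom, which acts in transposon silencing, and its MTF2 peak of 252 bp (chr1:166238455-166238706) ran from 38 to 289 bp downstream, with 132 bp in coding sequence. Of all genes with MTF2, 3.19% had a narrower peak than Sycp2 and 4.79% a narrower one than Mael. All 5 MTF2 peaks were below the median of 1113 bp over genes with MTF2. All 5 were centred downstream of the nearest TSS, by 88 to 436 bp, as were 79.8% of MTF2 peaks at all genes. With peaks of at least 500 bp alone, or with the TSS required inside the peak, MTF2 was at 3 genes.

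EZH2 was listed at 3 of the 9 genes in wild-type cells, and at 16.6% of all genes. The widths were 966 bp at Sycp1, 806 bp at Ddx4 and 464 bp at Tdrd1, each overlapping the MTF2 peak of the gene. At Sycp2 the nearest EZH2 peak was 5.23 kb upstream, and at Mael 15.0 kb upstream. Of all 3485 genes with MTF2, 95.4% also had EZH2, against 3 of these 5. The pattern of Sycp2 and Mael over all 7 lists was found at 95 genes (0.433%). In gene-trap cells EZH2 was listed at none of the 9 genes, and at 0.729% of all genes. It was thus kept at none of the 3, while 4.24% of all 3632 genes with it kept it.

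H3K27me3 was listed at 6 of the 9 genes in wild-type cells, and at 19.2% of all genes. The domain spanned 6014 bp at Ddx4 (chr13:112649563-112655576), 4234 bp at Tdrd1 (chr19:56824586-56828819), 4061 bp at Sycp2 (chr2:178405610-178409670) and 3635 bp at Mael (chr1:166236961-166240595). It spanned 2849 bp at Sycp1 (chr3:102934587-102937435) and 2092 bp at Dazl (chr17:50293035-50295126). Ddx4 and Tdrd1 lay above the median of 4215 bp for genes with the mark, and the other 4 below it. The domains filled the whole promoter window at Ddx4, Sycp1, Sycp2 and Mael, 58.4% of it at Dazl and 50.9% at Tdrd1, whose window includes a TSS further downstream.

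Dazl, which encodes an RNA-binding regulator of translation in germ cells, differed from the other 5 genes with H3K27me3. MTF2 was at those 5 of the 6, and at 79.0% of all genes with the mark. The domain at Dazl reached from 1490 bp upstream to 601 bp downstream. The nearest MTF2 and EZH2 peaks were both 102 kb away. Of all 4214 genes with H3K27me3, 16.2% had neither MTF2 nor EZH2 in the window.

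H3K4me3 was listed at 8 of the 9 genes in wild-type cells, and at 65.5% of all genes. The peaks were short. Tdrd1 had 633 bp, Mael 691 bp, Sycp2 791 bp, Ddx4 815 bp and Sycp1 848 bp, widths under which only 1.86% to 4.44% of genes with the mark lay. Dazl had 1178 bp (10.2% of genes were narrower) and Sycp3 1877 bp (31.4%), while Morc1, at 5404 bp, was wider than 87.2% of them. The median over all genes with H3K4me3 was 2471 bp. The 5 narrowest of these 8 peaks were thus at the 5 genes with MTF2. Among the related germline genes described below, wild-type H3K4me3 widths with and without MTF2 overlapped. They ran from 411 bp (Henmt1) to 8715 bp (Tfap2c) with MTF2, and from 253 bp (Tdrd12) to 9746 bp (Msh4) without it. Whether H3K4me3 width goes with MTF2 over all genes was not tested.

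**Figure D2:**
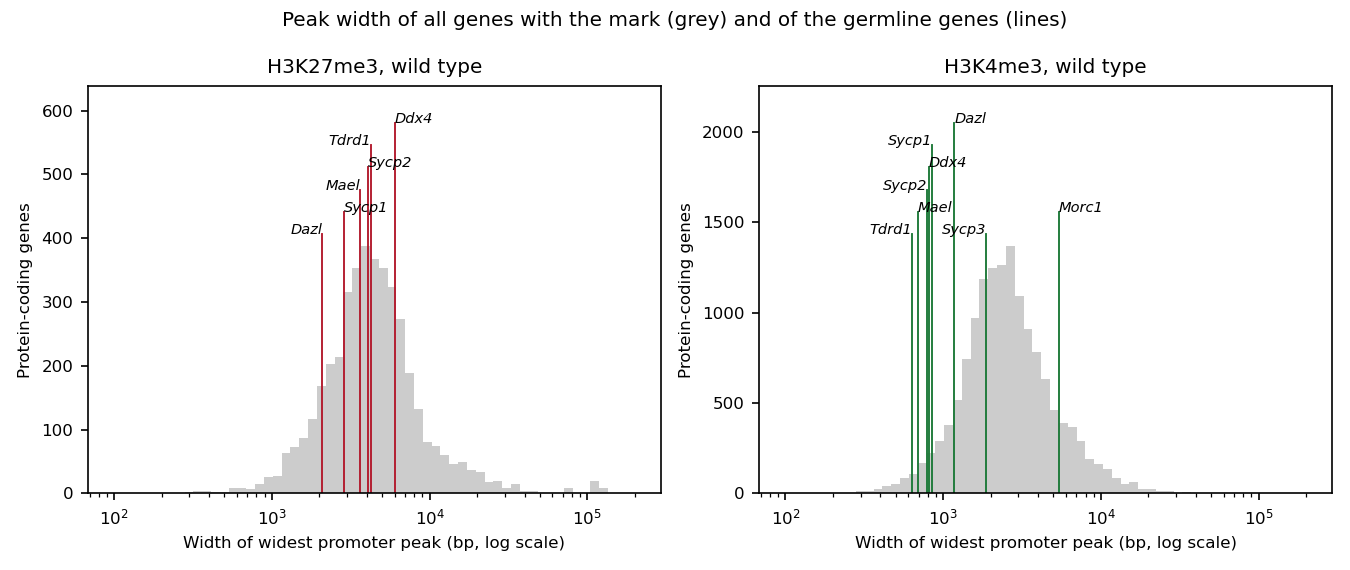
Width in bp (log axis) of the widest promoter peak in wild-type cells, for H3K27me3 (left) and H3K4me3 (right); grey bars count all protein-coding genes with the mark and lines mark the germline genes. The H3K27me3 widths of the germline genes spread from 2092 to 6014 bp, wider than 12.8% to 72.8% of genes with the mark. Of the 8 H3K4me3 widths, 5 lie between 633 and 848 bp, in the low tail.

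Set side by side, H3K27me3 and H3K4me3 occurred together at 6 of the 9 genes in wild-type cells, and at 18.2% of all genes. H3K4me3 without H3K27me3 was found at 2 (47.4% of all genes), neither mark at 1 (33.4%) and H3K27me3 without H3K4me3 at none (1.02%). The H3K27me3 domain was 7.38 times as wide as the H3K4me3 peak at Ddx4, 6.69 times at Tdrd1, 5.26 at Mael, 5.13 at Sycp2, 3.36 at Sycp1 and 1.78 at Dazl. The median ratio over these 6 was 5.20, and 2.54 over all 3991 genes with both marks. In 5 of the 6 the H3K4me3 peak lay wholly inside the H3K27me3 domain, as it did in 69.5% of all such genes. At Dazl 52.0% of the H3K4me3 peak lay inside. The centre of the MTF2 peak lay inside the H3K4me3 peak at all 5 genes with MTF2. The share over all genes was not computed for this, so it is not known to be particular to these genes. The lists do not show whether both marks sit on the same chromosomes or on different cells.

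The marks parted in gene-trap cells. H3K27me3 was listed at 1 of the 9 genes, and at 2.67% of all genes. It was kept at 1 of 6 genes, and at 13.7% of all genes with it. Ddx4 kept a peak of 1964 bp (chr13:112652220-112654183) in place of the domain of 6014 bp, which is 32.7% of its length, with no EZH2 peak nearer than 74.0 kb. Of all genes that kept H3K27me3, 73.7% likewise had no EZH2 peak in the window. The part left at Ddx4 reached from 1708 bp upstream to 255 bp downstream of the outer TSS, and so overlapped the upstream end of the wild-type MTF2 peak. No gene-trap H3K27me3 peak touched the domains of Dazl, Sycp1, Sycp2, Tdrd1 or Mael.

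**Figure D3:**
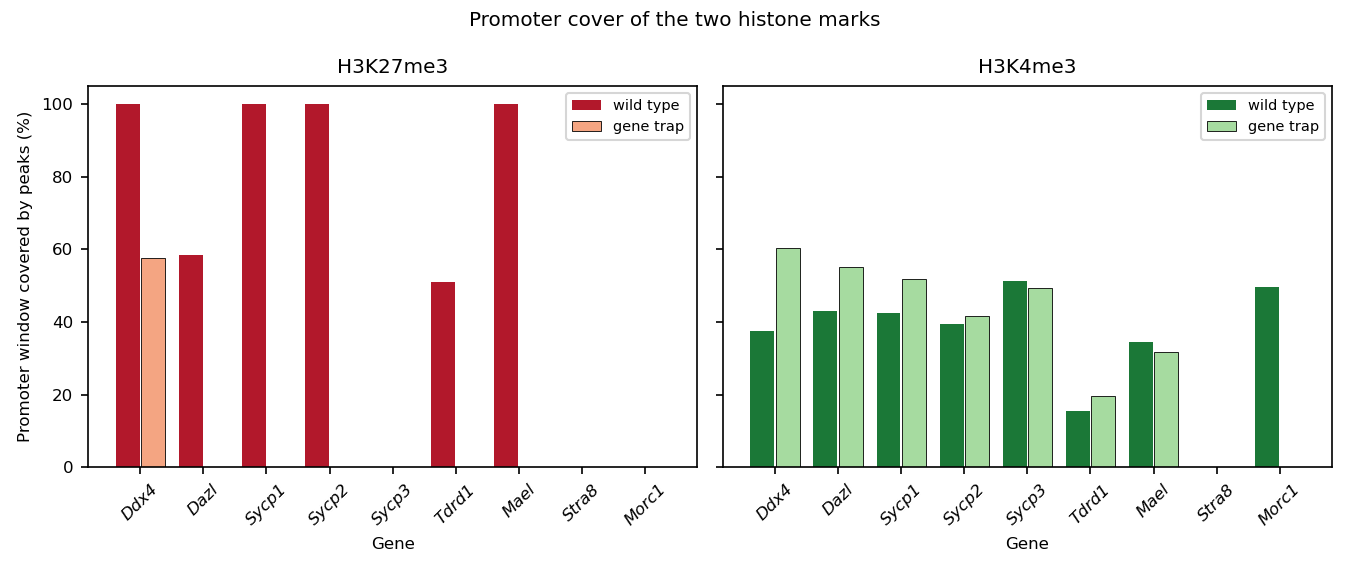
Share of the promoter window (in %) covered by H3K27me3 (left) and H3K4me3 (right) in wild-type and gene-trap cells, with 1 list per bar and so no error bars. H3K27me3 cover goes to 0 at 5 of 6 genes and to 57.7% at Ddx4, while H3K4me3 cover goes to 0 at Morc1 alone.

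H3K4me3 was listed at 7 of the 9 genes in gene-trap cells, and at 66.1% of all genes. It was kept at 7 of 8 genes, and at 98.8% of all genes with it. None of the 9 genes gained a mark, as was so for nearly all genes without it in wild-type cells (0.0328% gained EZH2, 0.0395% H3K27me3 and 3.98% H3K4me3). From wild-type to gene-trap cells its width went from 815 to 1312 bp at Ddx4, from 1178 to 1515 bp at Dazl, from 848 to 1039 bp at Sycp1, from 633 to 803 bp at Tdrd1 and from 791 to 834 bp at Sycp2. It went from 691 to 634 bp at Mael and from 1877 to 1035 bp at Sycp3. The peak was thus wider in 5 of 7 genes, with a median log2 ratio of 0.29. Over the 14208 genes with the mark in both genotypes, 28.1% had a wider peak and the median log2 ratio was -0.13. Each width rests on 1 list, so no error can be put on these ratios. Of the 3434 genes that had both marks and lost H3K27me3, 99.1% still had H3K4me3, as did all 5 of these germline genes.

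**Figure D4:**
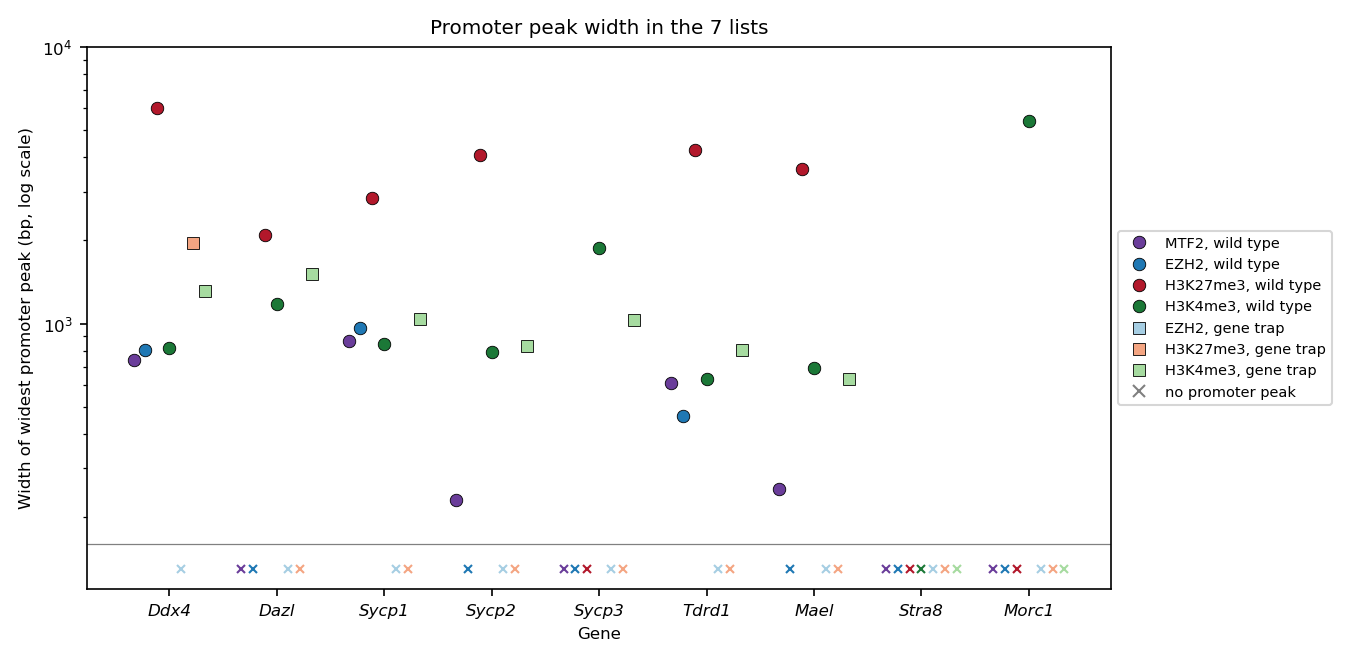
Width in bp (log axis) of the widest promoter peak of each gene in each of the 7 lists; circles are wild type, squares gene trap, and crosses under the line mark lists with no promoter peak. Gene-trap EZH2 is a cross at all 9 genes and gene-trap H3K27me3 at 8, while gene-trap H3K4me3 is a cross at Morc1 and Stra8 alone, the largest rise in width being at Ddx4 (815 to 1312 bp).

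Morc1 and Stra8 stood apart from the other genes. Morc1 encodes an ATPase needed for transposon silencing in male germ cells. Its wild-type H3K4me3 peak (chr16:48431247-48436650) began 10 bp after the TSS and covered 5248 bp of intron, and the gene-trap list had no H3K4me3 peak nearer than 65.2 kb. It was the sole mark at this promoter, and the nearest H3K27me3 peak in wild-type cells was 1998 kb away. A pattern of wild-type H3K4me3 alone was found at 138 genes (0.629%). Stra8, which is induced by retinoic acid and gates entry into meiosis, had no peak in any list, as was true of 32.4% of genes, and its nearest H3K4me3 peak lay 8.83 kb upstream. Sycp3, the partner of Sycp2 in the lateral elements, shared its pattern of H3K4me3 in both genotypes and no other mark with 45.5% of genes.

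Genes with the same pattern over the 7 lists as a member with MTF2, and the nearest peak widths, were taken as most alike. Likeness was the sum over the 7 lists of absolute log2 width differences, so a smaller sum is closer. For Tdrd1 these were Adad1 (sum 0.43) and Npy5r (0.53), and for Sycp1 Srsf12 (0.43) and Larp6 (0.51). For Sycp2 they were Cd44 (0.40) and Prokr1 (0.66), and for Mael they were Cd44 (0.87) and Sycp2 itself (0.88). Ddx4 had no match as close, with Dusp15 at 1.17.

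A further 69 genes of meiosis and the germline give the setting. In wild-type cells 18 of these had MTF2, 21 had EZH2, 29 had H3K27me3 and 45 had H3K4me3, and 22 were bivalent. The shares over all genes were 15.9%, 16.6%, 19.2%, 65.5% and 18.2%, in that order. H3K27me3 was kept at 5 of the 29, EZH2 at none of 21 and H3K4me3 at 43 of 45. Over all genes with the wild-type mark, 13.7% kept H3K27me3, 4.24% EZH2 and 98.8% H3K4me3. By role, H3K27me3 was at 7 of 15 genes of the synaptonemal complex, chromosome axis and cohesin, 5 of 15 recombination genes, 7 of 16 genes of the piRNA pathway, 7 of 19 genes of germ cell identity and RNA binding, and 3 of 4 genes of meiotic entry. In the roles named before meiotic entry it was kept at 0 of 7, 1 of 5, 1 of 7 and 0 of 7 genes, in that order. Rec8, which had no H3K27me3, was planned for meiotic entry as well but was counted with cohesin. All 3 of those at meiotic entry kept it. They are Meioc (5990 to 1615 bp), Zfp541 (4757 to 2390 bp) and Meiosin (3017 to 1400 bp), named after their values were seen. ZFP541 is known to act later, in meiotic prophase. MEIOSIN is the known partner of STRA8, whose own promoter had no peak.

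Dppa3, a germ cell and oocyte factor, had the widest H3K27me3 of these (13636 bp) without MTF2 or EZH2 and was without it in gene-trap cells. Six6os1, a synaptonemal complex gene, had 13582 bp with MTF2 of 2598 bp, and Tfap2c, a regulator of primordial germ cells, had 9175 bp with MTF2 of 4702 bp. Both were without H3K27me3 in gene-trap cells. So were Boll, a relative of Dazl (6915 bp), and Tdrd6, a relative of Tdrd1 (6095 bp), while Mei1, a gene of meiotic recombination, kept 3734 of 11911 bp. H3K4me3 was no longer listed at Hormad2 (1954 bp in wild-type cells) and Majin (636 bp) in gene-trap cells. It was listed there and not in wild-type cells at Tex12 (552 bp), Spata22 (513 bp), Meiosin (1170 bp) and Asz1 (346 bp), so that 47 of the 69 genes had it against 45. These 6 genes were named after their values were seen. H3K4me3 was gained at 3.98% of all genes without it in wild-type cells. Of 18 genes for repressors known to act on germline promoters, all 18 had H3K4me3 in both genotypes (65.5% and 66.1% of all genes). In wild-type cells H3K27me3 was at 19.2% of all genes and at 4 of these 18. Among the 4 were the DNA methyltransferase genes Dnmt3b (10579 bp) and Dnmt3a (6312 bp), without the mark in gene-trap cells. Another was E2f6 (3298 bp), named after its values were seen, which had 3144 bp in gene-trap cells.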

How the data were processed

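Peaks were read from 7 deposited lists that stand for 14 of the 22 libraries, and the other 8 libraries were not analysed here. CASAVA, BWA 0.7.10-r789 and MACS2 2.7 are named in the submitters' processing notes, with mm10 (GRCm38) as the build. The threshold, the control and the way libraries were combined are not given in the sources used here. The lists are labelled MAnorm unbiased, but what that step kept or left out is not given either. The deposited lists hold chromosome, start and end, with no height, score or read count, and starts were converted to positions counted from 1.

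Promoters were the windows of 1 kb on either side of every basic GENCODE M21 transcript of a protein-coding gene, without the mitochondrial genome. A peak sharing at least 1 bp counted, and the widest gave the width. The overlap step was tested on simulated data. Python 3.11.15, numpy 2.4.6, pysam 0.24.0 and samtools 1.23.1 were used. Sequences came from RefSeq GRCm38.p6.

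The genes and lists were chosen with earlier results of these data known. Among related genes with MTF2, EZH2 or H3K27me3 the 8 with the widest H3K27me3 were named, and for each member with MTF2 the 2 genes most alike, passing over predicted genes; 1 of these is not reported here. For likeness, 1 bp was added to each width before taking log2. No test was made, since each group has 1 list.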

Additional observations from a re-analysis of the deposited data

How the results depend on the processing

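The counts of genes per mark, class and kept mark were repeated with 500 bp and 2.5 kb windows, with the TSS inside the peak, with transcripts typed protein-coding alone, with at least 200 bp of the window covered, and with peaks of at least 500 bp. MTF2 was at 3 genes instead of 5 with the TSS inside the peak, and at 3 with peaks of at least 500 bp, since the peaks at Sycp2 and Mael are short and begin after the TSS. EZH2 was at 2 genes instead of 3 with peaks of at least 500 bp, without the peak of 464 bp at Tdrd1. With the TSS inside the peak, H3K4me3 without H3K27me3 was at 1 gene and neither mark at 2, since the Morc1 peak begins after the TSS. The median share of the window covered by H3K4me3 was 39.5% in wild-type cells, 55.7% with the 500 bp and 15.8% with the 2.5 kb window. In gene-trap cells it was 41.7%, 56.6% and 16.7%. Over 1 kb on either side of the start the median GC content of 8 promoters was 53.4% instead of 60.5%, CpG 3.85 instead of 6.83 per 100 bp, and GCG 2.67 instead of 5.83. Over all 16522 promoters the same medians were 51.6% instead of 57.0%, 3.25 instead of 4.67, and 2.00 instead of 3.00. The members thus lay closer to all promoters in the wider window. Of 99 alternative values, 88 were the same as or close to the main ones. No paired analysis was possible because each list stands for both replicates of its group. A peak absent from a list may reflect depth, which is unknown.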

Other observations

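Inside Morc1 the wild-type H3K4me3 list held 6 peaks and the gene-trap list 2. Those still listed in gene-trap cells began 65.2 kb and 180 kb after the TSS, and both have a wild-type counterpart there, of 2123 and 3555 bp against 1899 and 2618 bp. The peak at the promoter was thus one of 4 in this gene that the gene-trap list lacks.

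Near Sycp2, a gene-trap H3K27me3 peak of 2491 bp lay 3.93 kb upstream. The promoters of Ppp1r3d and Fam217b, whose TSSs lie 6.79 and 6.84 kb from that of Sycp2, had MTF2, EZH2 and H3K27me3 in wild-type cells and kept H3K27me3. At Mael, too, a gene-trap H3K27me3 peak of 4269 bp lay 13.1 kb upstream, whereas the domain at Mael itself held none. For Dazl and Sycp1 the nearest gene-trap H3K27me3 peaks were 2195 and 639 kb away.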
